A study of Mus musculus with 2 samples.

Results

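The CCN genes form a small family of secreted matricellular proteins, which sit in the extracellular matrix and signal to cells rather than build the matrix. Its members here were the 5 genes Cyr61, Ctgf, Nov, Wisp1 and Wisp2 (now named Ccn1 to Ccn5), found by gene symbol among the 17431 genes that had a read in either library. The data are RNA sequencing of poly(A) RNA from 2 cultures of BALB/c mouse dermis, with 1 library per cell type and no replicates. Skin-derived precursors (SKPs), dermal cells that are selected by growth in mitogens and can give rise to several lineages, came from mice at postnatal day 4. They were kept in DMEM/F12 with 40 ng/ml FGF2, 20 ng/ml EGF and 2% B27 supplement. Dermal fibroblasts came from mice at postnatal day 3 and were kept in DMEM with 10% fetal bovine serum. Cell type, medium, serum and age therefore differed together and cannot be told apart, and what follows compares 2 libraries without any replicate check.

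CCN proteins carry a domain related to the IGF-binding proteins, a von Willebrand factor type C domain, a thrombospondin type 1 repeat and a C-terminal cystine knot, and Wisp2 lacks the last of these. They bind integrins, heparan sulfate proteoglycans and growth factors, and they act on adhesion, migration and matrix production in connective tissue. In mesenchymal cells Cyr61 and Ctgf are known as early genes of the serum response and as targets of the coactivators YAP and TAZ with TEAD factors, and Ctgf also responds to TGF-beta. Wisp1 and Wisp2 were named for their induction by Wnt1.

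The sequences of the members set how well their reads can be told apart, so the closest stretches are shown here. Within the coding sequences, the 49-base windows (the read length) most alike in any pair of members were those of Ctgf and Nov, which differed at 7 bases. Those of Cyr61 and Ctgf differed at 8. Both pairs are given 5′ to 3′ on the coding strand from the GENCODE M21 transcripts (GRCm38), with the bases that differ within a pair in capitals.
Ctgf, beside Nov: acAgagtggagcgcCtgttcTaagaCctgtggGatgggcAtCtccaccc
Nov, beside Ctgf: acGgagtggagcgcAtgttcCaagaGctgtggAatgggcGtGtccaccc
Cyr61, beside Ctgf: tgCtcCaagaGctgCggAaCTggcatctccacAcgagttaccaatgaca
Ctgf, beside Cyr61: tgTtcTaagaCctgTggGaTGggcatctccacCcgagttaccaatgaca
In the other 8 pairs of members the fewest differing bases ranged from 10 to 13. Mapping allowed at most 2 mismatches, and no window of one member's transcript matched another member's transcript at that limit. Windows shared with any other gene's transcripts made up 0 of 1971 for Cyr61, 0 of 5049 for Wisp1 and 0 of 1671 for Wisp2. For Nov 50 of 2821 windows (1.77%) recurred in other genes. For Ctgf 224 of 2442 windows (9.17%) were shared with 1 gene, Gm15270, an antisense transcript that overlaps it and has no row in the tables.

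Of the members, 1 had an entry in the RefSeq promoter table (GRCm38.p6). The entry shown is that of Cyr61, which was also the most abundant member in both libraries. The 250 bases before its start, on the minus strand at chr3:145649986-145650235, hold in capitals the match to the TEAD motif (GGAATG, here on the other strand) and the TATA box (TATAAA, searched on the gene strand).
Cyr61 promoter: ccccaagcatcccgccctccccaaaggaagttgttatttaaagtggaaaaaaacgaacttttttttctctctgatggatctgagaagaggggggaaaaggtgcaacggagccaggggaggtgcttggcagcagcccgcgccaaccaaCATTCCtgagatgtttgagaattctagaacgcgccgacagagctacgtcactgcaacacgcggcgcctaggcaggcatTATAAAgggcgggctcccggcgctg
The TEAD match begins 103 bases and the TATA box 25 bases before the start. Among 32851 promoter windows of the same length, 12.6% held a TEAD match on either strand and 7.59% a TATA box. The window held no match to the CArG box of serum response factor (1.47% of promoters), the AP-1 motif TGANTCA (6.75%) or the TCF/LEF motif CTTTGA (13.8%), each searched on both strands, which says only that these letters are not in this window.

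Sequencing gave 22981183 reads for SKPs, with 85.13% mapped to genes, and 23374716 for fibroblasts, with 81.65% mapped. At these depths 1 read per kb of gene length was worth 0.0528 RPKM (reads scaled to gene length and to all counted reads) in SKPs and 0.0543 RPKM in fibroblasts. Expressed genes are those that reached both an RPKM of 1 and 20 reads in at least 1 library. Such a gene was called lower or higher in SKPs if the libraries were at least 2-fold apart and the 95% exact counting interval of their ratio left out equality. These intervals cover counting error only, not the spread between cultures.

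The fibroblast library held more RNA of the CCN genes. The 5 members summed to 145 RPKM in the SKP library and to 590 RPKM in the fibroblast library, a 4.08-fold difference. They took 6992 SKP reads, or 0.0369% of the library (95% exact binomial interval 0.0360 to 0.0378%), against 32755 fibroblast reads, or 0.178% (0.176 to 0.180%). Of the 5 members, 4 were lower in SKPs, 0 were higher and 1, Nov, was neither. Among all 12053 expressed genes 6.41% were lower in SKPs and 12.1% were higher. At 4-fold, 3 members were lower, against 2.0% of expressed genes. The median ratio of SKP to fibroblast RPKM, on the log2 scale, was -3.09 over the members and -0.01 over all expressed genes. Wisp2 passed the expression filter through the fibroblast library alone, while the other 4 members passed it in each library. In bulk RNA, fewer cells that express a gene and less of its RNA per cell cannot be told apart.

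**Figure D1:**
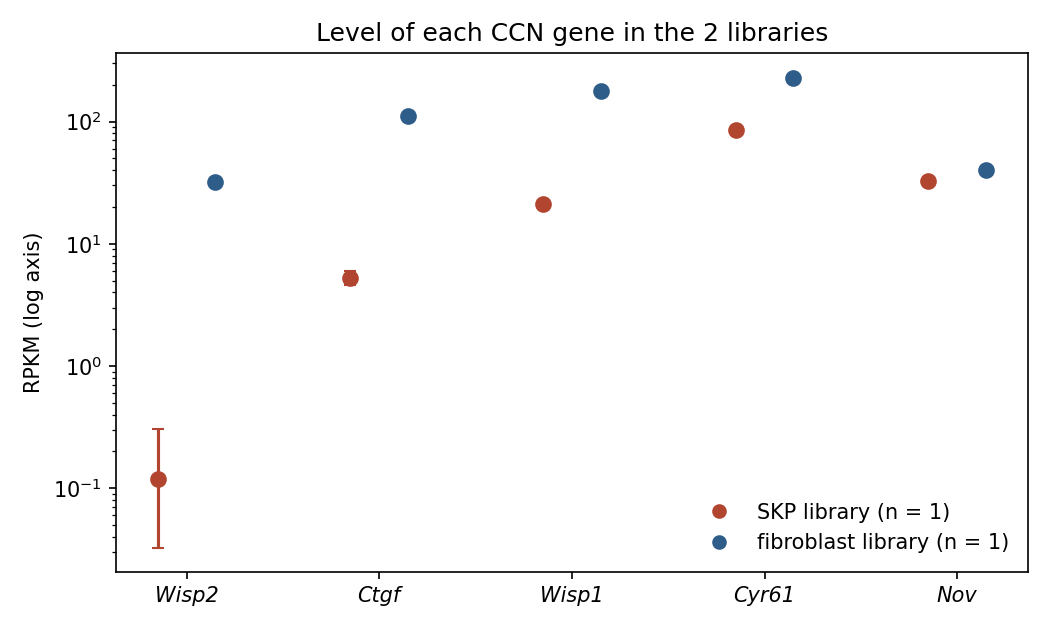
RPKM of each CCN gene (log axis) in the SKP library and the fibroblast library, ordered by ratio, with 95% exact Poisson intervals of the read count that cover counting error only and are mostly smaller than the points. Each SKP point lies below its fibroblast point, from 0.118 against 32.3 RPKM for Wisp2 to 32.4 against 40.5 RPKM for Nov.

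Cyr61, an integrin-binding angiogenic protein, stood at 85.9 RPKM in SKPs (3300 reads) and 228 RPKM in fibroblasts (8523 reads). It was the most abundant member in both cultures. Cyr61 was 2.66-fold lower in SKPs (interval 2.55 to 2.77), the smallest difference among the 4 members called. Even at its lower SKP level it ranked above 93.7% of expressed genes there, against 97.8% in fibroblasts.

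Ctgf, the connective tissue growth factor that is tied to fibrosis, stood at 5.26 RPKM in SKPs (241 reads) and 110 RPKM in fibroblasts (4913 reads). The difference was 20.99-fold (18.4 to 23.98). Ctgf was thus among the abundant transcripts of fibroblasts, above 95.2% of expressed genes, and among the lower ones of SKPs, above 31.0%. Its SKP reads covered 81.4% of the gene length. Among the 341 SKP genes of like read number and length (0.8 to 1.25 times each), the median coverage was 87.2% and the 10th to 90th percentile ran from 71.2 to 94.1%. The Ctgf reads in SKPs were therefore spread over the transcript about as in other genes of that depth.

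Nov, a CCN protein that can bind Notch1, stood at 32.4 RPKM in SKPs (1451 reads) and 40.5 RPKM in fibroblasts (1762 reads). It was 1.25-fold lower in SKPs (1.17 to 1.34), within the 2-fold limit although the counting interval excluded equality. Of all expressed genes 26.9% had a lower ratio than Nov. It ranked above 80.8% of expressed genes in SKPs and 84.7% in fibroblasts.

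Wisp1, which binds the small proteoglycans decorin and biglycan, stood at 21.0 RPKM in SKPs (1996 reads) and 178 RPKM in fibroblasts (16497 reads). It was 8.51-fold lower in SKPs (8.12 to 8.92). With a gene length of 5022 bases, the longest of the family, Wisp1 had the most fibroblast reads of the 5 members though not the highest level per length. Coverage was 99.7% of its length in SKPs and 99.98% in fibroblasts.

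Wisp2, the member without the cystine knot, stood at 0.118 RPKM in SKPs and 32.3 RPKM in fibroblasts, from 4 reads against 1060. The difference was 273-fold, with an interval from 106 to 1003 that is wide because of the 4 reads. Those reads covered 10.99% of the 1784-base gene, which equals the summed length of 4 reads of 49 bases and so leaves no overlap between them. In fibroblasts coverage was 98.9%. The log2 ratio was -8.09, and -4.895 when 1 was added to each RPKM. Only 5 of the 12053 expressed genes had a lower ratio than Wisp2, against 34 for Ctgf, 108 for Wisp1 and 445 for Cyr61.

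**Figure D2:**
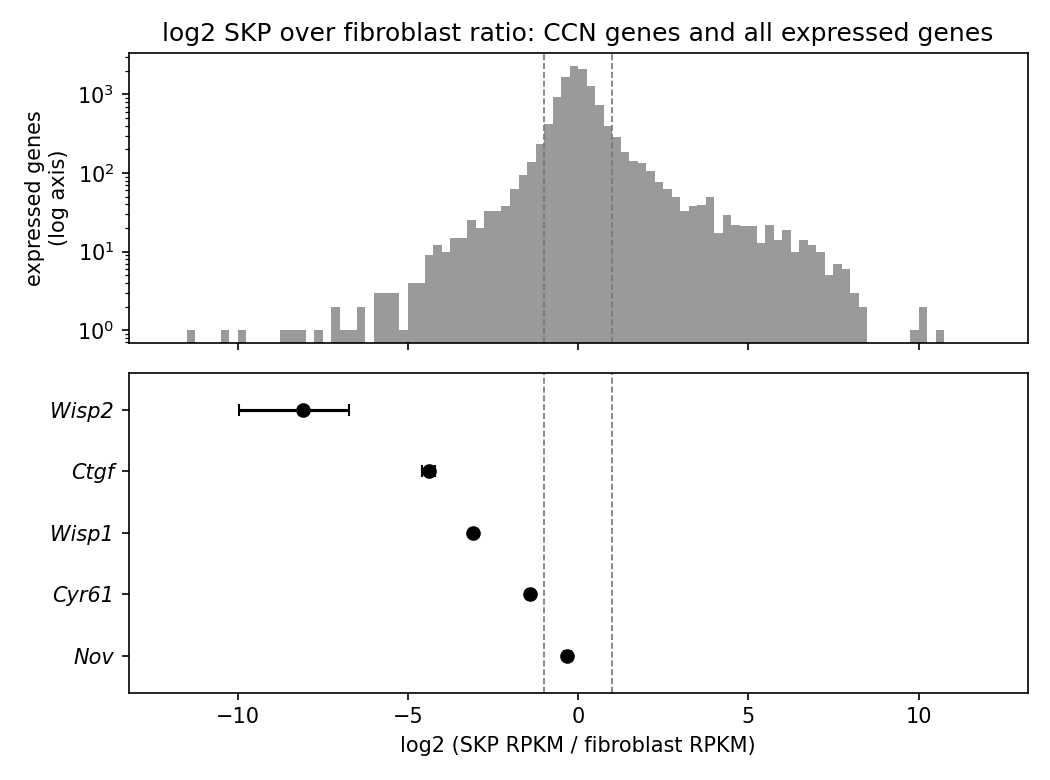
Top, number of expressed genes (log axis) by log2 ratio of SKP over fibroblast RPKM. Bottom, the same ratio for each CCN gene with its 95% exact counting interval, and dashed lines at a 2-fold difference. Wisp2 at -8.09 and Ctgf at -4.39 lie in the lower tail, and Nov at -0.32 lies between the lines.

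The members also differed from each other in their ratio. Each of the 10 pairs of members had a ratio of ratios whose exact interval excluded equality. The smallest was between Cyr61 and Nov, 2.13 (1.96 to 2.31), and the next between Ctgf and Wisp1, 2.47 (2.15 to 2.84). Wisp2 and Nov stood farthest apart, at 218 (84.6 to 804). From the lowest ratio to the highest, the order was Wisp2, Ctgf, Wisp1, Cyr61 and Nov.

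The ranking within the family changed with these differences. In SKPs, levels per length ran in the order Cyr61, Nov, Wisp1, Ctgf and Wisp2. In fibroblasts the order was Cyr61, Wisp1, Ctgf, Nov and Wisp2. Every pair of neighbours in either order differed beyond counting error. The narrowest gap in SKPs was Nov over Wisp1 at 1.54-fold (1.44 to 1.65). In fibroblasts the narrowest gaps were Nov over Wisp2 at 1.25-fold (1.16 to 1.35) and Cyr61 over Wisp1 at 1.28-fold (1.25 to 1.31). Nov, which was next to last in fibroblasts, was thus the runner-up in SKPs.

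Cyr61 made up 59.4% of the family's summed RPKM in SKPs and 38.7% in fibroblasts. The share of Nov was 22.4% in SKPs against 6.86% in fibroblasts. Wisp1 gave 14.5% in SKPs against 30.3%, Ctgf 3.64% against 18.7%, and Wisp2 0.0818% against 5.47%. Without Cyr61, the other 4 members summed to 58.7 RPKM in SKPs and 362 RPKM in fibroblasts, a 6.16-fold difference. The relative Wisp3 (Ccn6), which was not among the members, had 2 reads in SKPs and 0 in fibroblasts, at or under the floor of 3 reads, so no fold is given.

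**Figure D3:**
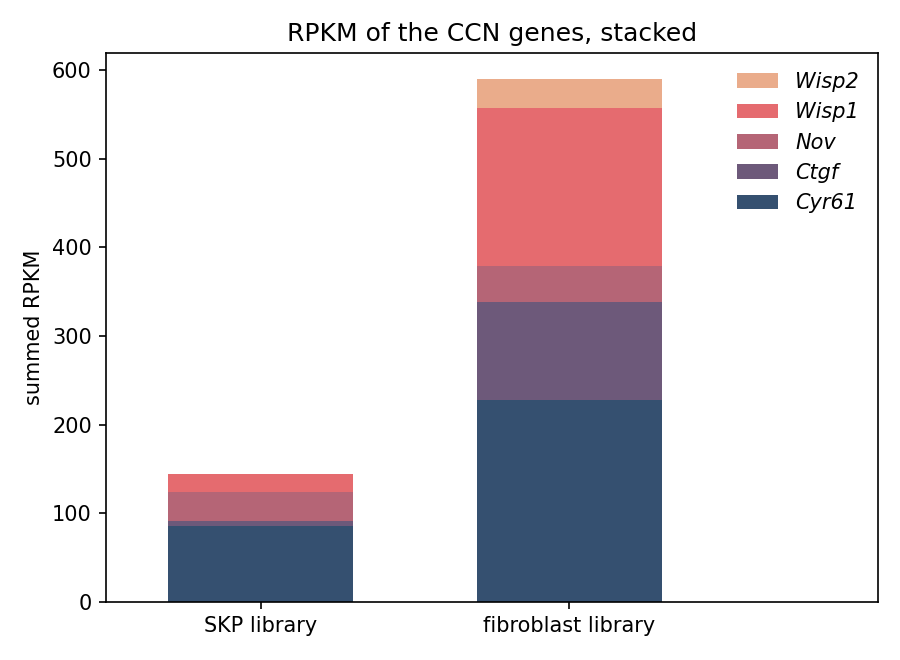
Summed RPKM of the 5 CCN genes in the SKP library and the fibroblast library, stacked by gene. The stack reaches 145 RPKM in SKPs and 590 RPKM in fibroblasts, and Cyr61 is the largest block in both.

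The authors' deposited table gives each member's log2 ratio as fibroblast over SKP. That ratio is 1.41 for Cyr61, 4.39 for Ctgf, 0.32 for Nov, 3.09 for Wisp1 and 8.09 for Wisp2. Its FDR in the authors' deposited table is 1.10e-09 for Nov and 0 for the other 4 members, and 0.36 for Wisp3. That test, whose name the sources used here do not give, compares the reads of these 2 libraries rather than the cell types.

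For each member, the 3 expressed genes nearest to it in level over the 2 libraries were looked up, by distance in log2 RPKM. Nearest to Ctgf was Amotl2, an angiomotin-like regulator of YAP, at 4.70 RPKM in SKPs and 89.6 RPKM in fibroblasts, at a distance of 0.34, followed by the LIM protein gene Fhl2 and Syt13. Wisp1 lay nearest to Aspn (asporin), at 23.5 RPKM in SKPs and 158 RPKM in fibroblasts, and to the elastic fibre gene Fbln5, at distances of 0.24 each, then to Hspb1. The genes nearest to Wisp2 were the smooth muscle gene Lmod1, Wnt4 and Siglecg at distances of 0.84, 1.36 and 1.89. Their SKP levels rest on 5, 22 and 2 reads and that of Wisp2 on 4, so these distances are only loosely set. Dstn, which encodes the actin-severing protein destrin, stood 0.13 from Cyr61, with Prnp and Hdgf next, and Ccdc124, Kctd17 and Srrt lay 0.01 to 0.04 from Nov. Likeness over 2 libraries describes a pair of levels only.

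Genes for proteins that CCN members bind were counted beside all 12053 expressed genes, of which 1455 (12.1%) were higher in SKPs and 772 (6.41%) were lower. Of 13 expressed CCN receptors, 7 were higher in SKPs and 1 was lower, with a median log2 ratio of 1.14. The laminin receptor subunit Itga6 was 16.4-fold higher (25.5 RPKM in SKPs against 1.55). The leukocyte integrin subunit Itgb2 was 19.2-fold higher, from 178 SKP reads against 9. The vitronectin receptor subunit Itgb3 was 4.37-fold and the endocytic receptor Lrp1 2.29-fold higher, while Fgfr2 was 4.83-fold lower. Itgb1, the beta chain shared by many CCN-binding integrins, was neither, at 199.6 RPKM against 306. Of 10 expressed growth factors and matrix proteins that CCN proteins bind, 5 were higher (3 with RPKM of at least 5 required) and 1, Vegfa, was 2.16-fold lower. At that stricter filter 828 of all 8968 genes that passed were higher. Decorin (Dcn), a partner of Wisp1, was 6.89-fold higher in SKPs at 2007 RPKM against 291, and biglycan (Bgn) was neither, at 2545 RPKM against 3373. Bmp2 was 127-fold, Bmp7 50.8-fold and Tgfb1 2.30-fold higher.

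Of 18 upstream regulators 15 were neither higher nor lower, close to the share among all expressed genes (9826 of 12053). Higher were 2, Smad3 (3.82-fold) and Wwtr1, which encodes TAZ (3.04-fold, 124 RPKM in SKPs against 40.7), and 1, the Hippo kinase Lats2, was 2.56-fold lower. Srf, the serum response factor, and Ctnnb1, which encodes beta-catenin, were neither.

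Other targets of the same pathways divided. For the counts below, 12.1% of all 12053 expressed genes were higher in SKPs and 6.41% were lower. Of 20 other YAP and TAZ target genes, 7 were lower and 3 higher, 10 did not reach the limit, and the median was -0.57. Some genes stand in more than 1 list, so Lats2 is counted here and above, and Igfbp3 here and below. Amotl2 was 19.1-fold lower and Ccdc80 8.55-fold lower, whereas Fjx1 was 14.7-fold higher and Igfbp3 8.72-fold higher. Ankrd1 and Foxf2, also lower, passed the expression filter through the fibroblast library alone, at 0.628 and 0.290 RPKM in SKPs. With RPKM of at least 5 required, 4 YAP and TAZ target genes were lower, against 478 of all 8968 genes that passed that filter. Of 13 TGF-beta response genes, 4 were lower, among them Acta2, Tagln and Col1a1, and 1, Ltbp2, was 2.63-fold higher, while Col1a2 was neither. Acta2, whose reads may be shared with other actin genes, and Tagln are also markers of myofibroblasts. Of 10 expressed Wnt response genes 3 were lower, including Nkd2 (2.57-fold) and Lgr5, and 3 were higher, including Ccnd1 (3.15-fold) and Notum with 44 SKP reads against 0. With RPKM of at least 5 required, 1 Wnt response gene was higher, against 828 of all 8968 genes that passed. With Cyr61 and Ctgf counted apart, 11 other immediate early genes were expressed, of which 6 were higher in SKPs and 1, Myc, was 2.66-fold lower. Egr2 was 39.2-fold, Egr3 19.95-fold (267 SKP reads against 13), Egr1 5.45-fold and Jun 4.03-fold higher. Among 10 other expressed genes with an IGFBP domain, 3 were higher, 3 were lower and 4 were neither, the last including Igfbp5, at 762 RPKM in SKPs against 489. Igfbp4 (24.7-fold), Igfbp3 and Htra3 (6.97-fold) were higher and Igfbp2 (8.81-fold), Igfbp7 (4.195-fold) and Htra1 were lower.

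**Figure D4:**
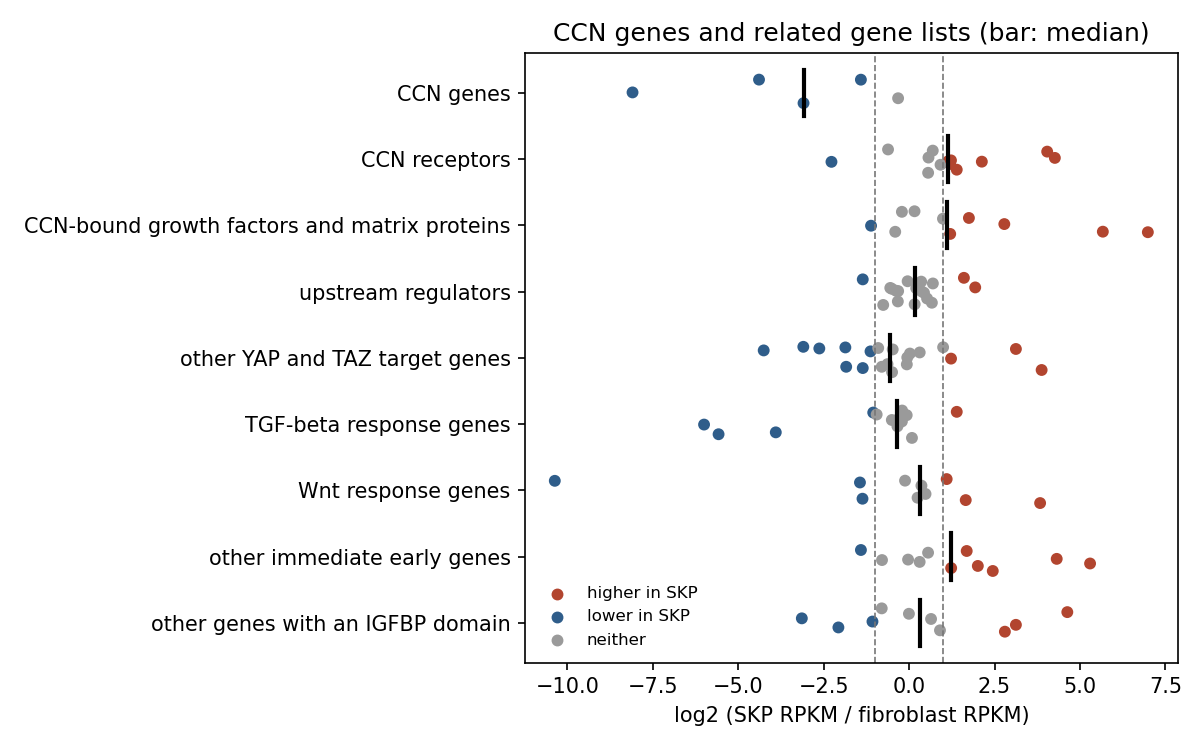
log2 ratio of SKP over fibroblast RPKM for each expressed gene of the CCN family and of 8 related lists (points, coloured by call), with the list median as a bar and dashed lines at a 2-fold difference. The CCN median is -3.09, against 1.14 for CCN receptors and -0.57 for other YAP and TAZ target genes.

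Markers of several cell types also differed between the libraries. All 7 myofibroblast and smooth muscle markers were lower in SKPs, and none of them was at 0 reads in either library. In SKPs, though, Cnn1 had only 1 read, Actg2 4, and Myh11 and Lmod1 5 each. The 7 markers summed to 57.5 RPKM in SKPs and 3196 RPKM in fibroblasts, of which Acta2 gave 41.0 and 1953. The part of these cells in the CCN difference was not tested. Summed levels in SKPs against fibroblasts were 83.2 against 0.241 RPKM for 8 mast cell markers. Of these, Mcpt4, Cpa3 and Fcer1a were at 0 in fibroblasts, though Fcer1a had only 2 SKP reads. Ms4a2 had 1 SKP read and 2 fibroblast reads. The sums were 30.3 against 4.49 RPKM for 8 leukocyte markers, with none at 0. For 8 keratinocyte markers they were 29.8 against 2.62, with Krt15 at 0 in both and Krt1 and Ivl at 0 in fibroblasts. The sums were 385 against 30.5 RPKM for 7 adipocyte markers, with Lep at 0 in fibroblasts, and 181 against 114 for 7 skeletal muscle markers. Acta1, which was neither, gave 116 and 91.2 RPKM of the skeletal muscle sums. Of 6 expressed skeletal muscle markers, 5 were higher in SKPs and 0 were lower. Endothelial markers (5.04 against 2.08 RPKM), chondrocyte and bone markers (22.2 against 12.4) and Schwann cell markers (3.50 against 9.34) were low in both. Among these, Col2a1, Col9a1, Matn1 and Bglap had no read in either library, Comp had none in SKPs and Ibsp had none in fibroblasts. The 8 dermal fibroblast markers summed to 10398 RPKM in SKPs and 10609 in fibroblasts but went both ways, with Lum (52.4-fold), Dcn and Col3a1 (3.60-fold) higher in SKPs, Thy1 (3.17-fold) and Col1a1 (2.07-fold) lower and 3 neither. Of 8 SKP and neural crest markers, Nes, Sox2 and Msx1 (0 reads in fibroblasts) were higher in SKPs, Sox10 was lower and 4 were neither.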

How the data were processed

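Libraries for Illumina sequencing were built from Trizol-extracted, DNase I-treated and oligo(dT)-selected RNA, per the labels' protocols. The authors deposited whole-number read counts per gene, RPKM (those counts scaled to gene length and to all counted reads), coverage in percent of the gene length, and mapping tables of read counts and percent values, per the file headers. Reads that matched several positions made up 21.69% of SKP reads and 19.69% of fibroblast reads. Counted reads exceeded the reads with a single match by 4370357 in SKPs and 3924587 in fibroblasts. Reads at several positions were therefore counted at least in part. The authors' comparison table gives a log2 ratio of fibroblast over SKP RPKM, a p-value and an FDR, per the file headers. The submitters' processing notes name the build mm9. Not given in the sources used here are the aligner, counting tool, annotation, strandedness and the way reads at several positions were assigned to genes. Reads from the windows that Ctgf shares with its antisense transcript therefore cannot be assigned to one of them.

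From the counts, SKP over fibroblast RPKM ratios with 95% Clopper-Pearson intervals were computed with scipy 1.17.1, numpy 2.4.6 and pandas 2.3.3 (Python 3.11.15) and plotted with matplotlib 3.10.9. The method was tested on simulated data. Ratios of ratios are conditional odds ratios with exact intervals. No molecular identifiers are described and PCR copies are not independent, so intervals and floors cover counting error and nothing else. A single library per group allowed no test between cell types, no p-value and no leave-one-out. Libraries were grouped by the cell type in their labels. The members and lists were chosen with earlier results of these data known. All members were named, and from each of 8 related lists up to 4 expressed genes with the interval limit farthest from equality and up to 2 of the highest level. Genes that make up a count of 5 or fewer, such as Myc and Htra1, and markers at 0 were named after their values were seen. Scaling, pseudocount, filter and fold threshold were varied. Some listed genes are not reported here.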

Additional observations from a re-analysis of the deposited data

How the results depend on the processing

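Cyr61, Ctgf, Wisp1 and Wisp2 were called lower in SKPs under the 3 other scalings, both pseudocounts and both other filters, and 0 members were called higher under any of these. At a 4-fold threshold 3 members were lower, and at 1.5-fold 4 were. Among all 12053 expressed genes, 241 were lower and 705 higher at 4-fold, and 1716 were lower at 1.5-fold. Adding 1 to each RPKM changed the log2 ratio of Ctgf to -4.153 and that of Wisp2 to -4.895. The summed family ratio ranged from -2.065 to -1.996 on the log2 scale over the scalings and pseudocounts. At 4-fold, 10 distinct genes of the related lists were lower and 15 were higher, against 20 and 29 at 2-fold, as a stricter threshold requires. The scalings shifted the median of all genes by -0.0371 to 0.0360. No paired analysis was possible because each group had 1 library. The 4 SKP reads of Wisp2 limit its ratio to the wide interval given, and differences between cultures could not be measured.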

Other observations

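The deposited annotation assigned 4 of the 5 CCN genes, all but Cyr61, to growth factor binding. Of 49 other genes with that term, 34 were expressed, of which 8 were higher in SKPs and 4 were lower, with a median log2 ratio of 0.11. Among all 12053 expressed genes 12.1% were higher and 6.41% were lower. In the RefSeq annotation (GRCm38.p6), the nearest protein-coding genes on the chromosome did not all share the direction of the CCN gene beside them. Enpp1, which follows Ctgf on chromosome 10, had 672 SKP reads and 87 fibroblast reads. Moxd1, on the other side of Ctgf, had 31 SKP reads and 179 fibroblast reads. On chromosome 15, Enpp2 beside Nov stood at 30.1 RPKM in SKPs and 0.385 RPKM in fibroblasts, while Mal2 on its other side had 10 SKP reads and 4 fibroblast reads. Tg, the thyroglobulin gene beside Wisp1, had 6 SKP reads and 324 fibroblast reads, and Ndrg1 on its other side was under 2-fold apart. Ddah1 beside Cyr61 on chromosome 3 stood at 18.3 RPKM in SKPs and 98.3 RPKM in fibroblasts, and Znhit6 was under 2-fold apart. Beside Wisp2 on chromosome 2, Ada was under 2-fold apart and Kcnk15 had 0 SKP reads and 1 fibroblast read.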
